A study of Mus musculus with 9 samples.

Results

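Transcripts typical of neutrophils were measured in preparations of lung dendritic cells before and after culture. The 10 genes were S100a8, S100a9, Trem1, Retnlg, Csf3r, Cxcr2, Ly6g, Lcn2, Ngp and Ltf, taken by gene symbol from a table of 45535 rows that carry a symbol, and each matched exactly 1 row. All 9 samples came from mice labelled C57/BL6j that had received bleomycin, which injures the lung and is given to mice to provoke fibrosis, and lungs were taken after 7 days. Lungs were digested with collagenase, cells that carry the integrin CD103 were selected on magnetic beads, and RNA was taken at once in 5 samples (libraries B1 to B5, before culture) or after 18 h of culture (RPMI, serum, penicillin and streptomycin) in 4 samples (libraries A1, A3, A4 and A5, after culture, replicates 1 to 4 in the labels). No untreated lung is used here. Whether 1 mouse or several went into a sample is not stated, so p-values measure only the spread between these samples, which may be technical. The cell type label gives CD103+ DCs, whereas the extraction label speaks of lung RNA.

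Neutrophils are short-lived granulocytes that leave the bone marrow under the cytokine G-CSF, enter inflamed tissue along CXC chemokine gradients and kill microbes with the contents of their granules. Granule proteins are made in a fixed order during maturation in the marrow, so transcripts of primary and secondary granule proteins are highest in precursors, while S100a8, S100a9 and Cxcr2 are abundant in mature cells. In bleomycin-treated lung, neutrophils are among the cells that enter the tissue. In bulk RNA such as this, fewer neutrophils and less of a transcript in each neutrophil cannot be told apart. Several of the 10 genes are also read in other cells: Lcn2 and Ltf in airway epithelium, and Trem1, Csf3r, S100a8 and S100a9 in monocytes.

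Values are the deposited normalized read counts, in which 1 read was worth 0.758 to 1.79, and libraries held 14.7 to 35.3 M reads in named rows. The selected cells were present by their markers: Itgae, which encodes CD103, was at 18138 ± 1537 in the 5 libraries before (SD) and at 1727 ± 335 in the 4 cultured ones, and Xcr1, a chemokine receptor of type 1 conventional dendritic cells, at 5836 ± 781 and 114 ± 32.5. Of 11 markers of these dendritic cells, 8 were lower after culture and 3 higher (Batf3, Flt3 and Zbtb46), with a median log2 fold change of −1.88. With a block by title number, without A1 and without A4, 2 were higher. Among all 18202 tested genes 34.6% were lower and 34.2% higher. Not every defining neutrophil gene was read well before culture. Of the 10 genes, 7 had group means from 764 to 5352 and Ngp and Ltf means of 48.2 and 95.2. Ly6g, the surface protein that defines mouse neutrophils in flow cytometry, was at 2 to 10 reads per library. Camp, which encodes the granule peptide cathelicidin, was at 3 reads or fewer in every library before culture.

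The promoters of 5 of the genes are shown because they stand for the contrasts described here. S100a8 and S100a9 are neighbours with nearly equal normalized counts, not corrected for length, before culture and unequal ones after it. Trem1 had the narrowest spread of the steep falls, and the products of Ngp and Ltf belong to secondary granules. All 10 genes matched the RefSeq promoter table (GRCm38.p6), and the stretch printed is the part of each window that lies before both the RefSeq and the GENCODE start of the gene. Capitals mark matches on either strand to TTNNGCAA, a C/EBP motif, and to GAGGAA, the core of a PU.1 motif. C/EBP factors and PU.1 drive granulocyte genes.
S100a8 promoter, chr3:90668821-90668977, plus strand: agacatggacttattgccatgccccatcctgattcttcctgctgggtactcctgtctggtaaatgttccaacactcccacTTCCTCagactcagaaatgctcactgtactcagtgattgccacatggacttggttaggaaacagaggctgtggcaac
S100a9 promoter, chr3:90695722-90695971, minus strand: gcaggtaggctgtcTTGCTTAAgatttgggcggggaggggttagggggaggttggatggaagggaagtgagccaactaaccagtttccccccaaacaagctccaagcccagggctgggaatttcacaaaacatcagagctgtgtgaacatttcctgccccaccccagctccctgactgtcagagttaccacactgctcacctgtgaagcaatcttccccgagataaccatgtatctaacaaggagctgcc
Trem1 promoter, chr17:48232489-48232738, plus strand: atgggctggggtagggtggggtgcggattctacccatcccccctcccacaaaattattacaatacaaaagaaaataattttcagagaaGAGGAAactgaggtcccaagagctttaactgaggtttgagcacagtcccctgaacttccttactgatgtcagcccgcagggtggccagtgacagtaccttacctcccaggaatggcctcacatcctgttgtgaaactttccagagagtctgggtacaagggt
Ngp promoter, chr9:110419558-110419746, plus strand: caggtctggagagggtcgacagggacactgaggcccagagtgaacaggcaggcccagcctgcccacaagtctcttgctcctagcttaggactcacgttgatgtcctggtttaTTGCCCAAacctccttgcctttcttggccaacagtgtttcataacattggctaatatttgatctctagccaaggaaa
Ltf promoter, chr9:111019042-111019270, plus strand: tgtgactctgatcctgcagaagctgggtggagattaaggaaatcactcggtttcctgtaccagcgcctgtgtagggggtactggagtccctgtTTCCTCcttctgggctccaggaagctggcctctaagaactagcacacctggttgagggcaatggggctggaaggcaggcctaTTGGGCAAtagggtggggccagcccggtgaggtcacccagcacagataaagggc
Over whole windows of 300 bases, 6 of the 10 genes held TTNNGCAA (S100a9, Retnlg, Ly6g, Lcn2, Ngp and Ltf), against 10.8% of all 32851 promoter windows in the table. GAGGAA was in windows of 7 of the 10 genes, against 28.3% of all windows. Ngp held TTNNGCAA at 2 places, and S100a8 held GAGGAA at 2 places, and in both the second lies past the printed stretch. These matches are letters in a window and no measurement of binding.

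All 10 genes were lower after culture, with no overlap between the groups. Summed over the 10 genes, the level was 17856 ± 4541 normalized counts before (SD, n = 5) and 1361 ± 350 after culture (SD, n = 4), a ratio of 13.1. Before culture the sums ran from 13511 to 23232 and after culture from 956 to 1811. Of the 10 genes, 9 had a mean of at least 10 and were tested, and all 9 passed at a limma adjusted p under 0.05 in the lower direction, where 34.6% of the 18202 tested genes did. In either direction 68.8% of tested genes passed, and 34.2% were higher. Each of the 9 fell at least 4-fold, as did 8.19% of tested genes. All 9 still passed when any 1 library was left out. Groups that do not overlap with lower values after culture were found for 28.6% of tested genes. The median log2 fold change of the 9 was −4.28, and that of all tested genes 0.0065. A gene read mainly before culture can only enter the test through those samples, so the count of 9 describes the genes that were readable.

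**Figure D1:**
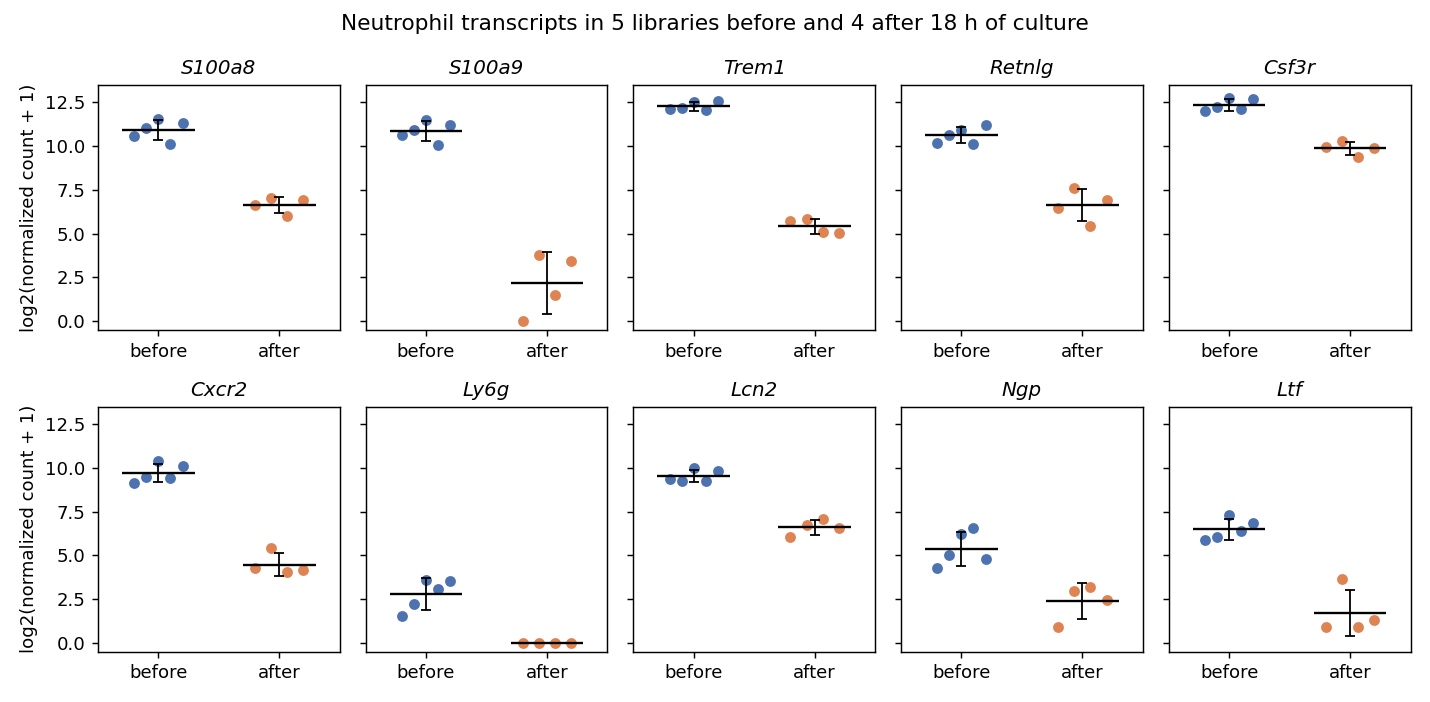
Normalized counts of the 10 genes on a log2(value + 1) scale (vertical axis) in the 5 libraries before and the 4 after culture. Each point is 1 library, horizontal lines are means of the log2 values and error bars their SD. In every panel all points after culture lie under all points before culture, and S100a9 and Ly6g reach 0.

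S100a8 and S100a9 encode the 2 calcium-binding chains of calprotectin, the most abundant protein of the neutrophil cytoplasm, and lie close together on chromosome 3 (S100a8 at chr3:90668978-90670035, S100a9 at chr3:90692632-90695721 on the opposite strand, GENCODE M21, GRCm38.p6). S100a8 was read at 1528, 2107, 2975, 1132 and 2526 normalized counts in B1 to B5, and at 97.2, 128, 64.6 and 120.1 in A1, A3, A4 and A5. S100a9 was read at 1571, 1924, 2929, 1062 and 2354 in B1 to B5, and at 0, 12.9, 1.82 and 9.88 in A1, A3, A4 and A5. Before culture both genes followed each other from library to library, highest in B3 and lowest in B4, and the ratio of S100a8 to S100a9 lay between 0.973 and 1.10. After culture that ratio was 9.94 in A3, 35.5 in A4 and 12.2 in A5, while A1 held 110 reads of S100a8 and 0 reads of S100a9. S100a8 was lower by a factor of 20.0 in the cultured cells, with a log2 fold change of −4.28 (SE 0.261) and a limma adjusted p of 7.99e-09. S100a9 was 320-fold lower (log2 fold change −8.68, SE 0.615, limma adjusted p = 3.48e-08), which moved to −7.95 without A1 and to −9.21 without A3. The unequal fall of the pair was noticed in the values and not tested by itself. No other annotated gene overlaps either of them, and 0% of the 50-base windows of their longest transcripts occur in another gene.

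Trem1 encodes a receptor of the immunoglobulin superfamily that amplifies inflammatory signals in neutrophils and monocytes through the adaptor DAP12. It was read at 4381, 4586, 5999, 4230 and 6039 normalized counts in B1 to B5, and at 51.2, 56.9, 32.8 and 31.9 in A1, A3, A4 and A5. Its spread before culture was the narrowest of the 10 genes, with an SD of 17.8% of the mean. The fall was 117-fold, with a log2 fold change of −6.86 (SE 0.178) and a limma adjusted p of 4.34e-12. The gene lies at chr17:48232768-48246924 and overlaps an annotated gene on the opposite strand, AC241601.2. Whether reads were counted by strand is not given in the sources used here, so reads of the 2 genes cannot be told apart.

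Csf3r encodes the receptor for G-CSF, the cytokine that drives neutrophil production and release, and had the smallest fold change of the 9. It was read at 4111, 4749, 6779, 4471 and 6652 normalized counts in B1 to B5, and at 1007, 1251, 655 and 948 in A1, A3, A4 and A5. That made Csf3r 5.54-fold lower, at a log2 fold change of −2.48 (SE 0.185, adjusted p = 5.83e-08 by limma). Cxcr2 encodes the receptor for the chemokines CXCL1, CXCL2 and CXCL5, by which neutrophils find inflamed tissue. Its values were 553, 709, 1336, 697 and 1106 in B1 to B5, and 18.5, 42.5, 15.5 and 16.7 in A1, A3, A4 and A5. A3 stood above the other 3 libraries after culture, which differed by little. Cxcr2 was 37.8-fold lower (log2 fold change −5.23, SE 0.303, limma adjusted p = 4.73e-09). Csf3r lies at chr4:126024550-126044440 and shares 11.2% of its windows with other genes, most of all AC105061.2. Cxcr2 lies at chr1:74153989-74161246 and shares 4.07%, most of all with Gm26764.

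Retnlg encodes resistin-like gamma, a small secreted protein of mouse myeloid cells, at chr16:48872621-48874496. It was read at 1182, 1586, 1956, 1121 and 2357 normalized counts in B1 to B5, and at 89.2, 196, 42.8 and 120.1 in A1, A3, A4 and A5. Retnlg fell 14.7-fold (log2 fold change −4.00, SE 0.345, limma adjusted p = 2.51e-07), with A3 and A4 as the extremes of the cultured libraries. Lcn2 encodes lipocalin 2, which withholds iron from bacteria by binding their siderophores, at chr2:32384633-32388252. Its values were 647, 621, 1018, 614 and 920.1 in B1 to B5, and 66.2, 106, 135 and 92.0 in A1, A3, A4 and A5. Lcn2 was 7.66-fold lower (log2 fold change −2.94, SE 0.205, limma adjusted p = 3e-08), and among cultured libraries it was highest in A4, where most of the other genes were lowest or next to lowest.

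Ltf and Ngp, 2 genes of secondary granules on chromosome 9, were read at low levels. Ltf encodes lactoferrin, an iron-binding granule protein (chr9:111019271-111042767). It was at 57.1, 64.3, 157, 84.5 and 113 normalized counts in B1 to B5, and A1, A3, A4 and A5 held 1, 15, 1 and 2 reads. The log2 fold change of Ltf was −4.79 (SE 0.521, limma adjusted p = 2.49e-06), and −5.43 without A3, which held most of the reads left. Ngp encodes neutrophilic granule protein, a member of the cathelicidin family (chr9:110419747-110423012). It was at 18.1, 30.9, 72.9, 92.1 and 26.9 in B1 to B5, and A1, A3, A4 and A5 held 1, 9, 9 and 6 reads. Ngp fell 9.42-fold (log2 fold change −2.97, SE 0.545, limma adjusted p = 2.88e-04), and its spread before culture was the widest of the tested genes, with an SD of 67.2% of the mean. Ly6g (chr15:75155240-75159126) was not tested. It held 2, 3, 10, 9 and 6 reads in B1 to B5 and 0 reads in each cultured library, which makes it at least 2.83-fold lower when each of those libraries is set to 3 reads, the limit that a count of 0 allows. Such a limit covers counting error only.

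Per kilobase of annotated exon, overlap here means that ranges over libraries overlapped, although all genes were read in the same libraries. Within every library before culture S100a9 stood above S100a8 and Retnlg, both of these above Trem1, and Trem1 above Csf3r. S100a8 and Retnlg changed places between libraries. S100a9 (3770 ± 1372 normalized counts per kb, SD, n = 5), S100a8 (2959 ± 1069) and Retnlg (2766 ± 883) overlapped one another across libraries. Trem1 (1685 ± 299) and Csf3r (1483 ± 351) overlapped each other. The range of Trem1 reached into those of S100a8 and Retnlg but not that of S100a9, and the range of Csf3r into that of S100a8 but not those of the other two. Lcn2 (291 ± 72.7) and Cxcr2 (289 ± 107) did not differ beyond their spread, nor did Ngp (39.4 ± 26.5) and Ltf (27.6 ± 11.8), and Ly6g was at 7.45 ± 4.40. The order depends on the length used, which is that of all annotated exons together. It is 2623 bases for Lcn2, 3450 for Ltf and 694 for S100a8, where the longest transcripts have 1374, 2743 and 498. Dividing by the shorter lengths would place these genes higher. After culture the order was another one, with Csf3r above Retnlg and S100a8 within every library. Csf3r (267 ± 67.8 per kb, SD, n = 4), Retnlg (189 ± 108) and S100a8 (148 ± 41.0) led and overlapped, Lcn2 followed at 38.0 ± 10.9, and Trem1 (14.4 ± 4.25), S100a9 (11.8 ± 11.9) and Cxcr2 (7.64 ± 4.21) overlapped beneath it.

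The make-up of the summed counts changed with culture. Csf3r held 30.1% of the sum of the 10 genes on average before and 70.9% after culture, and Trem1 28.7% and 3.20%. S100a9 went from 10.8% to 0.409%, whereas S100a8 held 11.3% and 7.52% and Retnlg 9.09% and 7.73%. To ask whether the genes fell by unequal factors, each was set against Trem1 within its library as a log2 ratio, and the ratios were compared between groups by an exact two-sided permutation test over the libraries, adjusted by the Benjamini-Hochberg method over the 8 comparisons. Trem1 was chosen as the reference with earlier results of these data known, because it was read in every sample. That also holds for S100a8, Retnlg, Csf3r, Cxcr2, Lcn2, Ngp and Ltf. Trem1 fell more than all the others but S100a9, so the direction of each ratio was set by this choice and follows from the fold changes above. The p-values below are no support for these directions. The ratios share 1 denominator and are not 8 separate results. All 8 ratios passed an adjusted p of 0.05. Relative to Trem1, Csf3r was higher after culture by 4.39 on the log2 scale, Lcn2 by 3.93, Ngp by 3.89, Retnlg by 2.86, S100a8 by 2.59, Ltf by 2.08 and Cxcr2 by 1.64, each without overlap of the groups (exact adjusted p = 0.00907, where the smallest unadjusted p here is 0.00794). S100a9 was lower relative to Trem1 by a log2 difference of −1.81 with overlapping groups (exact adjusted p = 0.0159). The difference was −0.99 without A1, which held no read of S100a9, and −2.36 without A5. That difference did not pass with a pseudocount of 8 (−0.51, adjusted p = 0.206) or without B1, B2, B3 or B5 (0.0571 each, in a range from 0.0179 to 0.0571 over the 9 libraries left out in turn), so the 7 rises relative to Trem1, but not the fall of S100a9, passed with each pseudocount and each library left out.

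**Figure D2:**
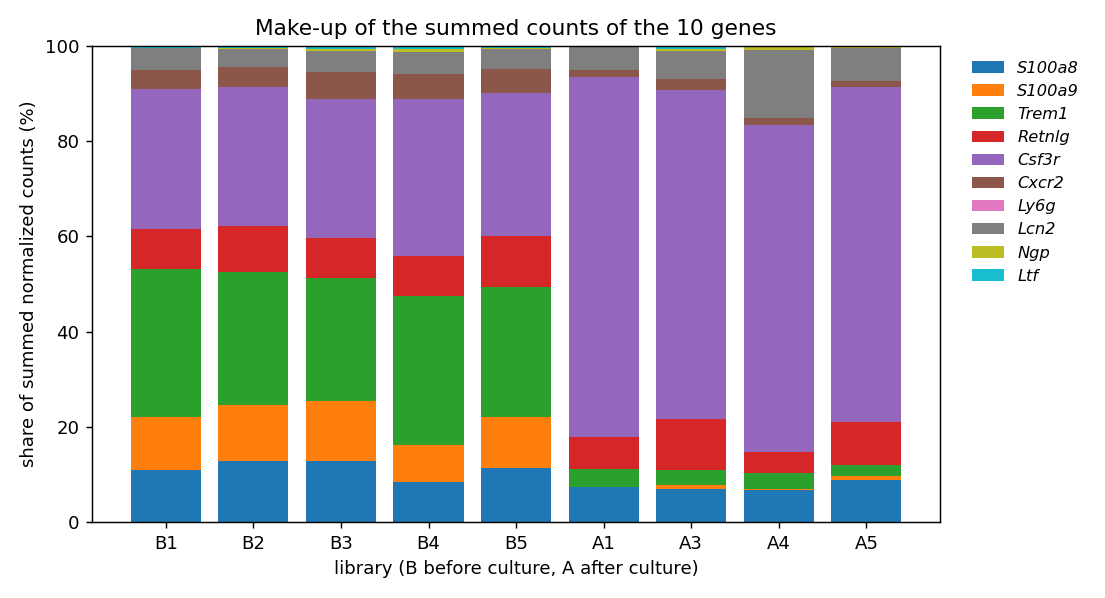
Share of each of the 10 genes in their summed normalized counts (vertical axis, percent) for the 5 libraries before (B) and the 4 after culture (A). Csf3r widens from 30.1% to 70.9% on average, the bands of Trem1 and S100a9 shrink to 3.20% and 0.409%, and S100a8 and Retnlg keep bands of several percent.

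Most of the genes shared their high and low libraries before culture. B3 was the highest library for 7 of the 10 genes and B5 for 2, while B1 and B4 were the lowest for 5 genes each. Over all tested genes, B3 was the highest library for 21.1%, B4 the lowest for 30.4% and B1 the lowest for 16.4%. Ngp alone was highest in B4, at 92.1. B3 exceeded B4 for 8 of the 9 tested genes, with a median ratio of 1.74. Over all tested genes with reads in B4, B3 exceeded B4 for 9261 of 18187. The same comparison was chosen after the values were seen. Its median ratio was 1.65 for 14 monocyte and macrophage markers, 0.857 for 12 lung epithelial markers and 0.844 for 11 markers of type 1 conventional dendritic cells. It was 1.91 for secondary and tertiary granule genes, 1.75 for granulocyte transcription factors, 1.32 for ligands and partners and 1.29 for other mature neutrophil genes. Fibroblast markers had 1.195, endothelial 1.03, B cell 0.786, T and NK cell 0.737 and erythroid markers 0.475. Mpo, the primary granule gene tested, had 0.631. After culture A3 was highest for 7 of the 9 genes with reads, and over all tested genes for 33.0%. Ngp and Lcn2 were the exceptions, both highest in A4, but for Ngp both A3 and A4 held 9 reads. Of 12 lung epithelial markers, 10 were highest in A4 and 7 in B4, where Lcn2 was lowest. Sftpc, the surfactant gene of alveolar type II cells, was among them (3606 in A4, against 819 to 1142 in the other cultured libraries, and 16826 in B4, against 4296 to 7467). The part of epithelial RNA in the levels of Lcn2 and Ngp was not tested.

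**Figure D3:**
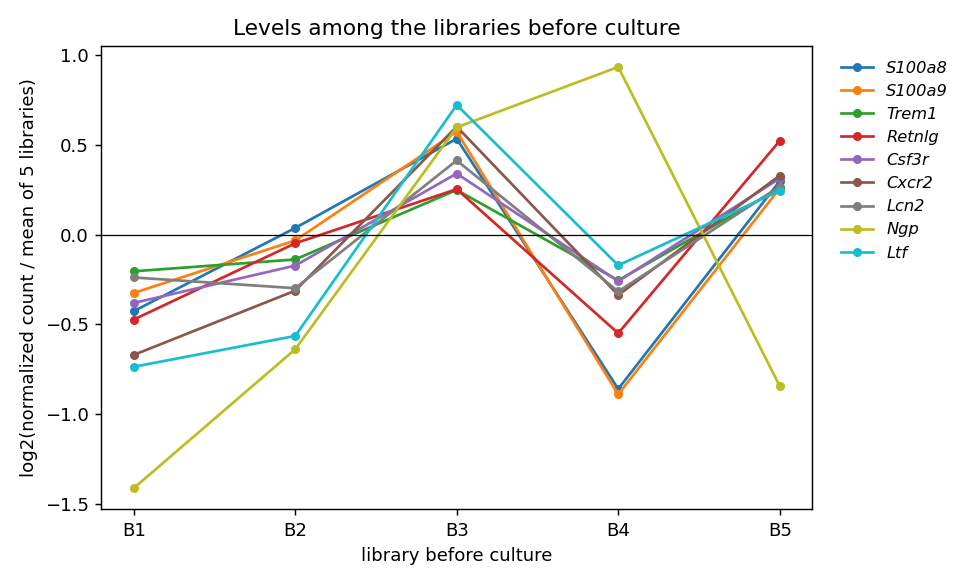
Level of the 9 tested genes in each library before culture (horizontal axis), as log2 of the normalized count over the mean of the 5 libraries. Lines join values of 1 gene, not an order in time. Most genes peak in B3 or B5 and dip in B1 or B4, and Ngp peaks in B4.

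Further genes listed for neutrophils, here and in the next paragraph, did not all move with the 10. In bulk RNA the cells that their reads came from cannot be told, and this was not tested. Their counts are to be read against all tested genes, of which 34.6% were lower and 34.2% higher. Of 5 primary granule genes, which are made first in the marrow, only Mpo, the gene of myeloperoxidase, had a mean of at least 10. It went from 39.4 ± 15.2 to 3.45 ± 4.46 (log2 fold change −3.66, limma adjusted p = 8.61e-05), and the log2 fold change was −4.27 without A3. Ctsg and Ms4a3 held 0 to 3 reads in every library of both groups, Elane 1 to 4 before and 1 to 14 after culture, and Prtn3 5 to 17 and 0 to 9. Of 10 secondary and tertiary granule genes, 9 were tested, with 6 lower and 3 higher after culture and a median of −1.42. Cd177, a surface protein of secondary granules, fell 28.7-fold (353 ± 137 to 12.3 ± 5.02), Mmp9, the gelatinase of tertiary granules, 14.9-fold (2320 ± 646 to 155 ± 42.9) and Pglyrp1, a bactericidal peptidoglycan-binding protein, 4.28-fold (332 ± 70.4 to 77.5 ± 14.2). Against them Mmp8, the neutrophil collagenase, rose 24.6-fold (401 ± 93.4 to 9876 ± 3673), Itgam, the CD11b integrin chain, 2.20-fold and Adam8, a membrane protease, 1.60-fold. Camp held 0 to 3 reads before and 4 to 9 after culture and was not tested.

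Of 18 other genes of mature neutrophils, 16 had a row and 15 were tested, with 7 lower, 4 higher and a median of −0.03. Without a filter on low values that median was −0.99 over 16 genes. Hdc, which makes histamine, fell 76.0-fold (2874 ± 702 to 37.8 ± 12.6), and Il1r2, the decoy receptor for interleukin 1, 22.6-fold (4454 ± 347 to 197 ± 38.3). Stfa2l1, a stefin of the cysteine protease inhibitor family, held 663 reads before and 0 after culture, which makes it at least 63.6-fold lower at 3 reads per library. Mrgpra2b, a receptor of the Mas-related family, held 152 reads before and 1 after culture, and Mrgpra2a 20 and 3. In the other direction, Mmp25, a membrane-bound metalloproteinase of leukocytes, rose 6.66-fold (2219 ± 162 to 14774 ± 932) and Clec4d, a C-type lectin receptor for fungal and mycobacterial ligands, 3.11-fold. Asprv1, an aspartic protease, rose 1.88-fold and Cxcr1, the other CXCL8-type receptor, 1.71-fold, both with overlapping groups.

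**Figure D4:**
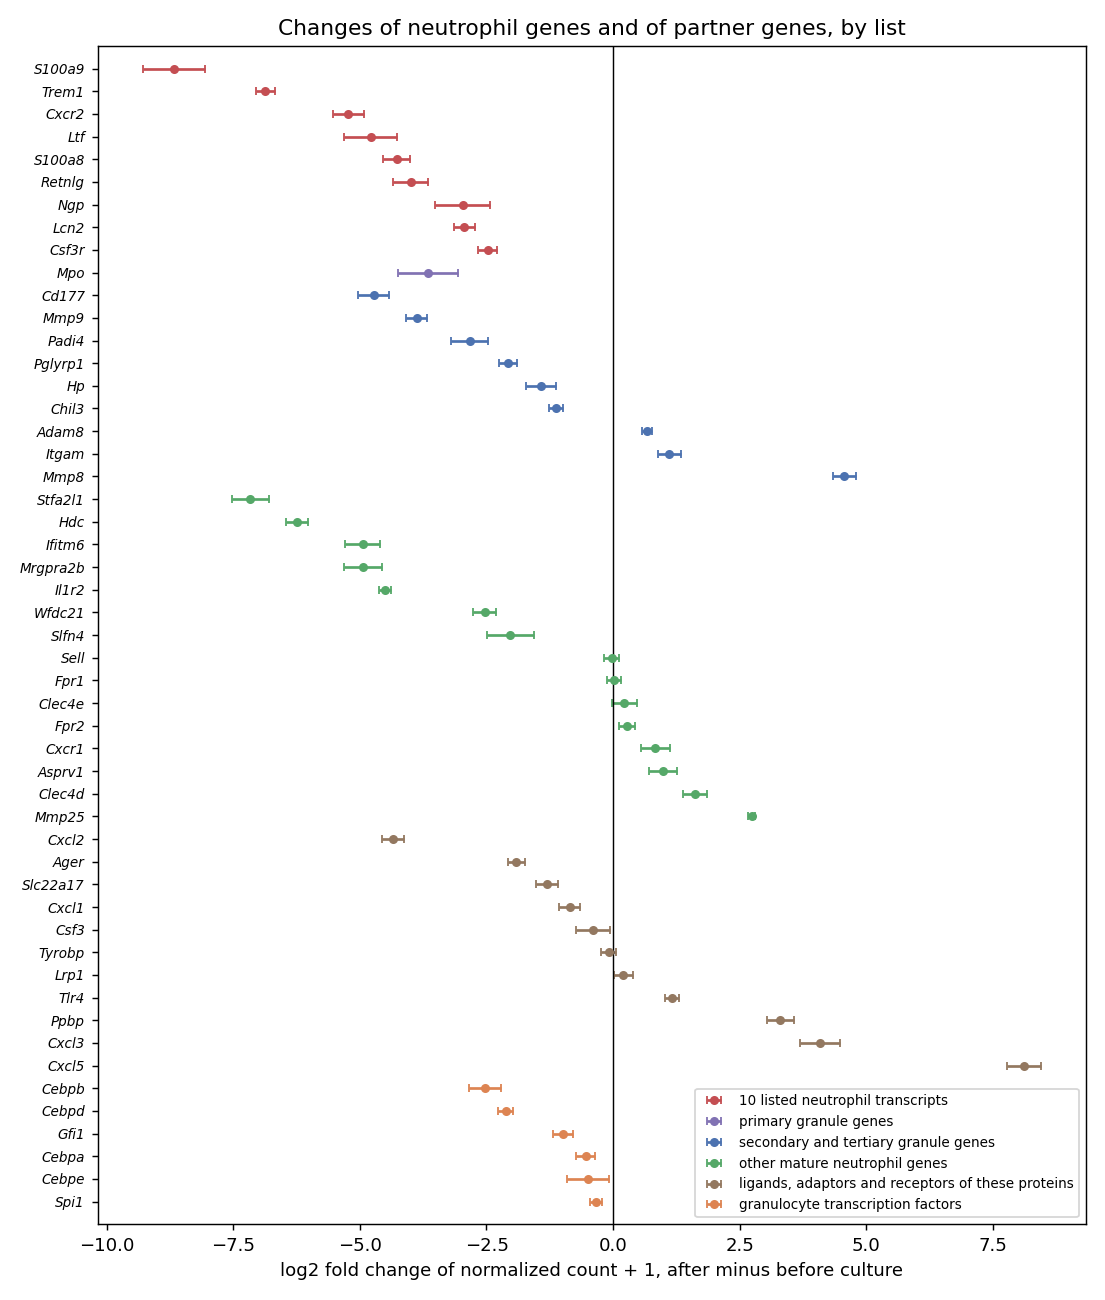
Log2 fold change of each tested gene (horizontal axis, after minus before culture, on the log2(value + 1) scale), grouped by list. Points are estimates and bars their SE. The 9 tested genes of the 10 lie between −8.68 and −2.48, while the other neutrophil lists and the partner genes hold points on both sides of 0.

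Ligands and partners of these receptors moved in both directions, with 5 of 12 lower, 4 higher and a median of −0.24. These shares are near those over all tested genes (34.6% lower and 34.2% higher), so the counts say nothing particular of the list. Among CXCR2 ligands, Cxcl5 rose from 3.97 ± 1.86 to 1297 ± 346, Cxcl3 14.8-fold (309 ± 211 to 4562 ± 1502) and Ppbp 9.75-fold (25.0 ± 9.69 to 244 ± 43.2), while Cxcl2 fell 20.0-fold (14165 ± 3467 to 708 ± 250) and Cxcl1 1.78-fold with overlapping groups. Csf3, the gene of G-CSF itself, was at 24.8 ± 4.02 and 20.4 ± 10.1 and did not pass (limma adjusted p = 0.315). Tlr4, a receptor for the S100A8 and S100A9 dimer, rose 2.29-fold (962 ± 74.3 to 2205 ± 625). Ager, listed both as a partner and as a lung epithelial marker, fell 3.70-fold (531 ± 80.9 to 143 ± 39.6, limma adjusted p = 4.67e-07). Of 6 granulocyte transcription factors, 5 fell, with a median of −0.77, but only 3 did so without B3, without A4 or with a replicate block by title number. Cebpb fell 5.61-fold (11333 ± 3720 to 2021 ± 892), Cebpd 4.32-fold (1631 ± 236 to 378 ± 93.1) and Gfi1, a repressor needed for granulocyte development, 2.00-fold (150.3 ± 31.5 to 75.3 ± 14.8). Spi1, which encodes PU.1, was 1.27-fold lower with overlapping groups (limma adjusted p = 0.0206, and 0.00143 to 0.0656 over the libraries left out, the highest without A4).

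Markers of other cells are set beside these genes because all lists share the same samples. Endothelial markers were lower for 10 of 10 genes (median −3.83), fibroblast markers for 9 of 9 (median −2.74) and lung epithelial markers for 10 of 12 (median −2.26). Among all tested genes 34.6% were lower and 34.2% higher. Medians were −0.63 for monocytes and macrophages, −0.39 for T and NK cells and −0.04 for B cells. The 9 tested neutrophil transcripts had a median of −4.28, and the other neutrophil lists together one of −1.13 over 31 tested genes (19 lower, 7 higher). No test compares the lists. Lyz2, the lysozyme gene of monocytes, macrophages and neutrophils, rose from 95551 ± 16767 to 193540 ± 45834. Summed levels of the 14 monocyte and macrophage markers ran from 140340 to 209420 before and from 163100 to 302410 after culture. Without Lyz2, sums of the other 13 ran from 51489 to 100970 before and from 29402 to 60699 after culture. Of the 14 markers, 6 were lower (9 without A3) and 1, Lyz2, was higher (2 were without B2, with quantile normalization, without A5 and by DESeq2, 3 without A4, and 5 with a block by library number). Monocyte and macrophage RNA was read in both groups, and its part in the levels of S100a8, S100a9, Trem1 and Csf3r was not tested.

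**Figure D5:**
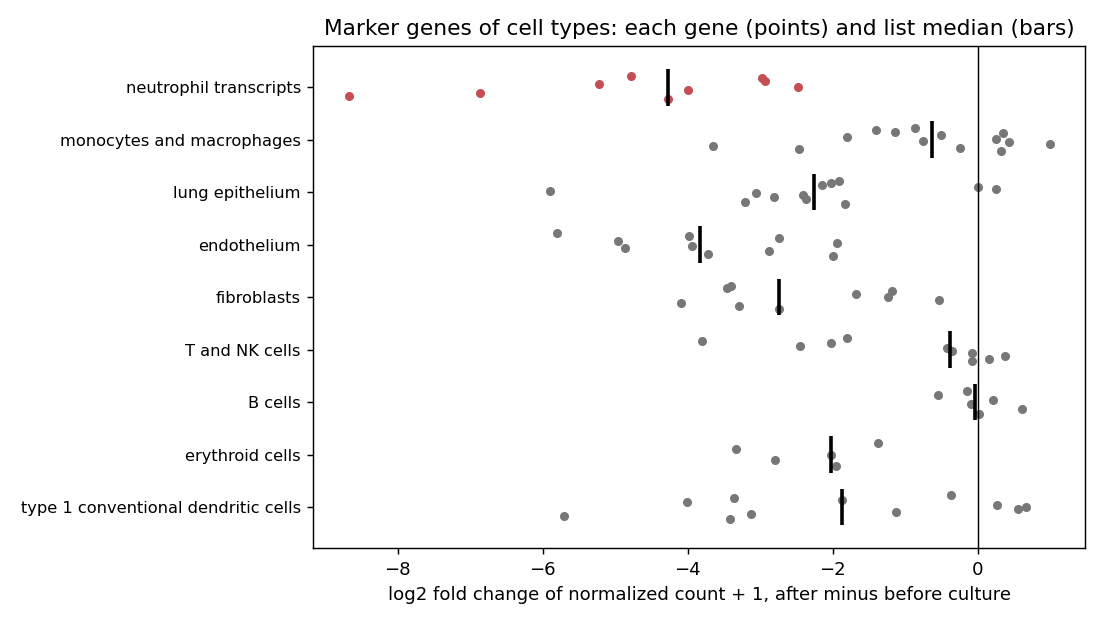
Log2 fold changes (horizontal axis, after minus before culture) of the tested marker genes of 9 cell types. Each point is 1 gene and each vertical bar the list median. The 9 neutrophil transcripts all lie at or under −2.48 with a median of −4.28, and the B cell genes lie near 0 with a median of −0.04.

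The genes whose course over the 9 libraries came closest to the mean course of the 9 tested transcripts were found among 11779 other genes with a mean of at least 100, by the root-mean-square difference of log2(value + 1) centred on the mean before culture. These were Retnla (0.267), Sox18 (0.356), Il1r2 (0.361), Plbd1 (0.379) and Garin4 (0.401). Retnla, which encodes resistin-like alpha of macrophages and epithelium, went from 840.5 ± 176 to 36.0 ± 11.5. Sox18 is an endothelial transcription factor and went from 613 ± 127 to 20.8 ± 7.85. Of the 9 transcripts themselves, differences from their own mean ran from 0.414 for Cxcr2 to 2.76 for S100a9.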

How the data were processed

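Libraries were made and sequenced by Azenta, per the labels' protocols. What the authors deposited is 1 table of normalized counts, a signal that is never negative, with 49317 rows and 9 sample columns. GRCm38 and DESeq2 are named in the submitters' processing notes. The aligner, counting tool, annotation and use of strand are not given in the sources used here. All values (100%, tolerance 1e-06 of a read) were whole multiples of 1 step per column, so whole reads were recovered by dividing by it. The product of step and median-of-ratios factor differed from 1 by at most 6.7e-16 in any column, so the steps are the inverses of these factors. The 3782 rows without a symbol, 3.87 to 10.9% of reads, were left out.

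The 18202 named rows whose mean was 10 or more were tested with limma 3.58.1 (R 4.3.3) on log2(value + 1), with group as the only term, a mean-variance trend and two-sided p-values. These were adjusted together (Benjamini-Hochberg) at a threshold of 0.05. Log2 fold changes are after minus before culture. For low genes they depend on the pseudocount, and as differences of mean log values they can be larger or smaller than the log2 of the fold. Folds are ratios of group means of normalized counts. A value of 3 reads or fewer was taken as the floor. Positions, exon lengths and 50-base windows of transcripts shared between genes came from GENCODE M21.

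The 10 genes and all lists were chosen with earlier results of these data known. Named beside the 10 are, from each neutrophil or partner list, up to 4 genes with the smallest adjusted p, those past the threshold against the list median and those at or under the floor, up to 3 of the most abundant markers of other cells, Itgae and Xcr1, and the 5 genes of most similar course. Not all are printed. Cxcl1, Csf3 and Sftpc among others were named after their values were seen or for their role. Alternatives were pseudocounts of 0.5 and 8, no filter or a minimum mean of 50, TMM and quantile scaling, edgeR 4.0.16 and DESeq2 1.42.0 on recovered reads, replicate blocks and leaving out each library. The code was tested on simulated counts. Exact tests went through all splits in Python 3.11.15 with NumPy 2.4.6, and tables were handled in pandas 2.3.3. Plots were drawn in matplotlib 3.10.9.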

Additional observations from a re-analysis of the deposited data

Results flagged for a closer look

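Library A3 stood apart from the other cultured libraries for 2 of the 10 genes. Cxcr2 was at 42.5 in A3, and the nearest of the other 3 libraries was at 18.5, a gap of 0.886 of the whole range where 0.829 is the 95% limit for 4 samples. Ltf was at 11.4 in A3 and next at 1.52, a gap of 0.939 of the range. Of 19 gene and group combinations examined, these 2 passed, and chance passes about 1 in 20.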

How the results depend on the processing

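All 9 tested genes stayed lower at an adjusted p under 0.05 in the 21 other fits, except that Ngp was not tested at a minimum mean of 50, where 8 of 8 passed. Without a filter, Ly6g also passed (10 of 10). Calls over all genes ran from 9925 (minimum mean of 50) to 14150 (no filter), with 12562 by edgeR and 12663 by DESeq2, and from 11766 to 12691 when a library was left out. The widest ranges were those of S100a9 (−9.21 to −7.16), Ltf (−5.43 to −3.15) and Ngp (−3.25 to −1.94), whose values with a pseudocount of 8 were the smallest in size. Relative to Trem1, 7 to 8 of 8 ratios passed.

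The labels do not say whether replicate numbers pair the samples across groups. Correlations of deviations between equal title numbers lay between −0.250 and 0.103 over 4 pairs. Title numbers 1 and 2, but not 3 and 4, had their own number as the closest partner. Between equal numbers in the library names all correlations were positive (0.0521 to 0.350). Library numbers 1, 3 and 4, but not 5, had their own number as the closest partner. Whether either numbering pairs the samples was not tested. With a replicate block, 11656 genes were called by title number (12123 in the same samples without the block) and 12865 by library number (11949 without it), and all 9 of the 10 genes that were tested passed in both. Depth limits Ly6g, Ngp and Ltf, and S100a9 after culture.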

Other observations

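Families of some of the 10 genes were taken by the start of the symbol after the values were seen, and are given as values. Their counts include the members of the 10 themselves. Over all tested genes 34.6% were lower and 34.2% higher, and the counts are to be read against these shares. Of 10 tested genes of the S100a family, 4 were lower and 2 higher after culture (3 lower with quantile normalization, 3 higher with a block by library number and 4 higher without A4). S100a8 and S100a9 fell most, S100a16 fell 3.68-fold (139 ± 24.5 to 37.9 ± 12.4, limma adjusted p = 5.55e-06), and S100a10 and S100a11, the partners of annexins, rose 1.76-fold and 1.73-fold (1847 ± 189 to 3244 ± 443 and 6325 ± 234 to 10969 ± 870). S100a4 and S100a6 were at 2165 ± 345 and 2311 ± 238 before and at 2515 ± 320 and 2534 ± 520 after culture, and neither passed the test.

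Of 9 tested genes of the Trem family, 4 were lower and 2 higher, again set against 34.6% and 34.2% of all tested genes, and 3 were higher with quantile normalization, TMM scaling, edgeR, a pseudocount of 8 and some libraries left out. Trem3, another activating receptor of the family, fell 16.8-fold (224 ± 32.7 to 13.3 ± 8.45, limma adjusted p = 3.29e-08). Trem2, a lipid-sensing receptor of macrophages, rose 2.04-fold with overlapping groups (1092 ± 297 to 2232 ± 619, adjusted p = 0.00145) and Treml6 4.21-fold (709 ± 171 to 2983 ± 937). All 3 tested resistin-like genes, Retnlg, Retnla and Retn, were lower.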
